A study of Mus musculus with 22 samples.

Results

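Mammary tissue samples of 22 mice held very different amounts of skeletal muscle RNA, also within the groups of the study, and are described here by that amount. The mice were ranked by the mean log2(CPM + 1) of Acta1 (skeletal actin), Ckm (muscle creatine kinase), Mylpf (fast regulatory myosin light chain) and Tnnt3 (fast troponin T), and the 6 highest (muscle-rich) were set against the 6 lowest (muscle-poor) of the 22. CPM is the reads of a gene per 1000000 reads of its library, and the deposited values have a floor at 1 CPM. Because the members were selected on measured values, these 4 genes are given below as the values that chose the mice. They are also counted in the share of reads of the muscle lists, and some of them in a set of promoters. Every other muscle gene is described without a test between the 2 sides. The 10 mice between them, at ranks 7 to 16, were not used by the contrast. They served to describe which genes follow the 4-gene mean outside the 2 sides.

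All 22 animals were female C57BL/6J mice of 7 to 8 weeks. They lived for 2 weeks with a running wheel mounted on a hub, or with the hub alone as sedentary controls, and then received 100000 EO771 cells, a syngeneic mammary cancer line made to express firefly luciferase, in the fat pad of the left mammary gland number 4. Each mouse was injected intravenously with liposomes 24 hours before engraftment and again at engraftment, holding either PBS (the carrier alone) or clodronate, which is toxic to macrophages and other cells that engulf the liposomes. Tissue was collected 24 hours after engraftment, with 6 hub PBS, 6 wheel PBS, 5 hub clodronate and 5 wheel clodronate mice, and no group went without engrafted cells or without liposomes. RNA was measured by QuantSeq, which reads the 3′ end of each transcript, so levels of different genes can be compared without a correction for length.

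A skeletal muscle fibre is a long cell filled with sarcomeres, in which myosin heavy chains pull on actin when troponin binds the calcium that is released through the ryanodine receptor and pumped back by SERCA. Fast fibres and slow fibres carry different sets of these proteins, so the genes tell the fibre type. In the mouse, the fat pad of this gland lies between the skin, under which runs a thin sheet of striated muscle, and the muscle of the body wall. The epidermis above that sheet is a layered epithelium whose basal cells make Krt5 and Krt14 and whose outer cells switch to Krt1, Krt10 and the proteins of the cornified envelope, such as loricrin.

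Promoters of 4 genes that stand for the 2 programs are shown first, because the report turns on fast fibre genes and on cornifying epidermis genes, both higher in the muscle-rich than in the muscle-poor mice. Each runs from 250 bases before to 50 after the start that RefSeq gives in the GRCm38.p6 build, in the direction of transcription, and capitals mark matches, on either strand, to CAGCTG (an E-box of the kind bound by muscle factors such as MyoD), the MEF2 site, the CArG box, TATAAA and TGACTCA (the AP-1 site). Myh4 encodes the heavy chain of the fastest fibres, Atp2a1 the SERCA pump of fast fibres, Krt10 a keratin of the outer epidermis and Lor loricrin.
Myh4, chr11:67237562-67237861, plus strand: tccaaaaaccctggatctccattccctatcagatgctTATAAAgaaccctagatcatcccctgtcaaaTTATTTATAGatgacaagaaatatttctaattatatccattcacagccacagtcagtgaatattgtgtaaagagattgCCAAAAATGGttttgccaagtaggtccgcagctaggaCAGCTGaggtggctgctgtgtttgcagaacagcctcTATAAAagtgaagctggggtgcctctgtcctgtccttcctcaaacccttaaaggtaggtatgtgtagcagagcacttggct
Atp2a1, chr7:126463024-126463323, minus strand: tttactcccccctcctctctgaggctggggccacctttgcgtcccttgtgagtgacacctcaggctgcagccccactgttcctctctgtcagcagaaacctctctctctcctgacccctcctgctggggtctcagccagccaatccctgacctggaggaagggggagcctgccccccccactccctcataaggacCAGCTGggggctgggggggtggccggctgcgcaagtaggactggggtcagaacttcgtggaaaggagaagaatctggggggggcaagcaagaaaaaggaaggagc
Krt10, chr11:99389315-99389614, minus strand: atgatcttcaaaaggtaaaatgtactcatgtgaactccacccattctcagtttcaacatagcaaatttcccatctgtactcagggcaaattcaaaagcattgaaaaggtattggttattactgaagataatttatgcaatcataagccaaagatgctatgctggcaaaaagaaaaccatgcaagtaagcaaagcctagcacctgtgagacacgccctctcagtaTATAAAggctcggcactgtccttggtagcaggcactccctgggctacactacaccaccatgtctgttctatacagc
Lor, chr3:92083093-92083392, minus strand: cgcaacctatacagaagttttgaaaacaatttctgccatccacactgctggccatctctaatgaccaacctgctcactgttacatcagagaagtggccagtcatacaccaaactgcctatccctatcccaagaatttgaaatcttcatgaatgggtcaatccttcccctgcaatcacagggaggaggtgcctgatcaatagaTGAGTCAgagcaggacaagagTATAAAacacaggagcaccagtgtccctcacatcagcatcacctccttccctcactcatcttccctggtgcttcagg
In Myh4, CAGCTG began at position -67 from the start, the CArG box at -104, the MEF2 site at -182 and the TATAAA nearest the start at -31. A further TATAAA match on the opposite strand lay inside the MEF2 site. Atp2a1 held a single CAGCTG at -55 and none of the other motifs in this window. Krt10 held TATAAA at -26, and Lor held TATAAA at -27 and the AP-1 site at -48.

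Across the fast fibre and sarcomere genes, with the ranking genes of these lists included, 28 of 41 symbols had a promoter in the table, in 31 windows. Of these windows, 35.5% held CAGCTG, 19.4% a MEF2 site and 16.1% a CArG box, against 16.3%, 3.19% and 1.63% of all 32851 promoter windows. TATAAA was in 19.4% and TGACTCA in 9.68% of them, against 13.6% and 5.20% of all windows. Of the 20 skin genes named below, 16 had a promoter, in 18 windows. There TATAAA was in 44.4% and TGACTCA in 33.3%, while CAGCTG was in 11.1%, the CArG box in 5.56% and the MEF2 site in 0%. These shares describe letters in short windows and say nothing of which factors were bound.

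The depth was 13256467 to 20484578 reads per mouse (median 16293026), of which 57.2% to 64.5% were assigned to genes, and a gene at the floor can hold up to 13 to 20 reads. Muscle-rich and muscle-poor mice did not differ beyond their spread in total reads (15474190 ± 1628706 and 17163371 ± 2358778, SD, n = 6 each, exact permutation p = 0.173), in the share of reads assigned to genes (61.3 ± 2.57% and 59.9 ± 2.53%, exact permutation p = 0.355) or in genes above the floor (13482 ± 155 and 13344 ± 261, exact permutation p = 0.281), each by a two-sided test over 924 splits. Without hub PBS mouse 1 the difference in total reads was -2381477 (exact permutation p = 0.0476). Adipocyte markers were high in every sample, with a sum of 10879 to 31040 CPM over 10 genes. Those of the mammary epithelium summed to 642 to 3702 CPM over 10 genes. That list holds Krt5 and Krt14, which the epidermis also makes. In hub clodronate mouse 3, which had the highest sum, these 2 genes were at 1468 and 1946 CPM. Lymphocyte markers summed to 1001 and 608 CPM in wheel clodronate mice 4 and 5, which are muscle-poor, and to 4.64 to 37.6 CPM in the other 10 mice of the contrast. No mouse was left out, and counts of genes are given below with and without those that stand apart.

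Acta1 was at 6082 CPM in hub clodronate mouse 2, 3330 in wheel clodronate mouse 2, 836 in hub PBS mouse 3, 721 in hub clodronate mouse 3, 450 in hub clodronate mouse 5 and 340 in hub PBS mouse 6, the 6 muscle-rich mice in order of rank. In the muscle-poor mice it was at 9.57 in hub clodronate mouse 1, 19.5 in wheel PBS mouse 6, 7.35 in wheel clodronate mouse 4, 7.67 in wheel clodronate mouse 5, 7.23 in hub PBS mouse 1 and 5.46 in wheel PBS mouse 4. The first 2 mice stood well above the other 4 of the muscle-rich side, while the muscle-poor mice lay close together. The 4-gene mean ran from 11.65 to 7.41 in the muscle-rich mice (mean 9.04 ± 1.67, SD) and from 2.30 to 1.78 in the muscle-poor mice (2.11 ± 0.18). At the edges of the sides, the mouse at rank 6 had 7.41 and the next 6.88, and the mouse at rank 16 had 3.01 and the next 2.30. The genes of the 10 muscle lists, the 4 ranking genes included, took 0.752% to 8.78% of the reads assigned to genes in the muscle-rich mice. In the middle mice the share was 0.270% to 0.591%, and in the muscle-poor mice 0.296% to 0.443%. These lists hold enzymes that other tissues share, so the share is not the amount of muscle alone. Without the 4 genes, the muscle-poor mice had a median sum of 2082 CPM over all lists and 1508 CPM in the energy list. The fast fibre list summed to 24.5 to 48.3 CPM in the muscle-poor and 49.7 to 706 CPM in the middle mice. In a whole tissue sample, fewer cells of a type and less RNA per cell cannot be told apart.

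**Figure D1:**
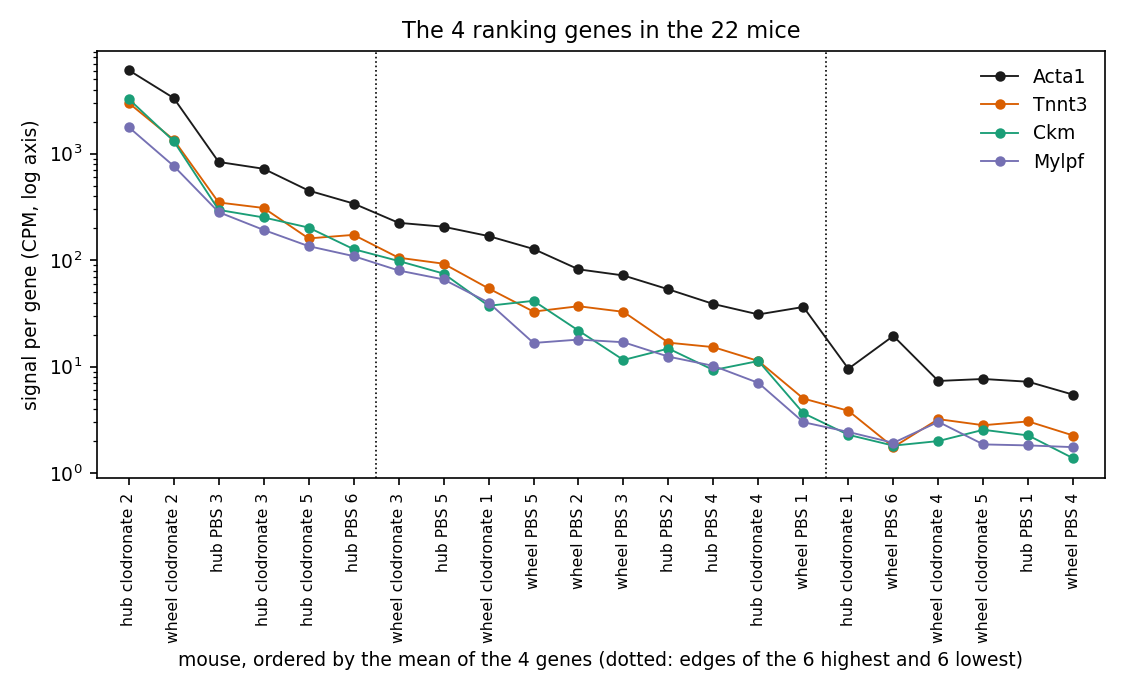
Signal of the 4 ranking genes (CPM, log axis) in each of the 22 mice, ordered by their mean log2(CPM + 1), with dotted lines at the edges of the 6 highest and 6 lowest. Acta1 falls from 6082 CPM in the first mouse to 5.46 CPM in the last, with steps from 340 to 224 CPM at the upper edge and from 36.4 to 9.57 CPM at the lower.

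The muscle-rich side held 5 hub mice and 1 wheel mouse, and the muscle-poor side 2 hub mice and 4 wheel mice (Fisher's exact test, two-sided, p = 0.242). By liposome, 4 of the muscle-rich and 3 of the muscle-poor mice had received clodronate (Fisher's exact test, two-sided, p = 1). Ranking on values without a pseudocount or after upper-quartile scaling gave the same 6 and 6 mice. All 4 labelled groups spread widely. The 4-gene mean was 2.07 to 8.63 in hub PBS mice (median 5.53), 1.78 to 5.41 in wheel PBS mice (3.89), 2.30 to 11.65 in hub clodronate mice (7.73) and 2.10 to 10.51 in wheel clodronate mice (5.95). Each of these groups held at least 1 muscle-poor mouse, and wheel PBS was the group with 0 muscle-rich mice.

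Tested by label over all 22 mice with limma, 0 of the 15134 genes passed an adjusted p of 0.05 between wheel and hub (0% of genes tested, with 1226 at an unadjusted p under 0.05), and no muscle gene came nearer than 0.6. By estimate, 106 of the 115 muscle genes tested were lower in wheel mice (median -0.60, against -0.039 and 57.3% lower over all genes tested). Many muscle genes rise and fall together across the mice, so the 106 are not independent of each other and their number is no test of activity. Myh4 differed by -1.73 (SE 1.18, limma adjusted p = 0.724) and Ttn by -1.43 (SE 1.06, limma adjusted p = 0.746) between wheel and hub. Clodronate against PBS gave 31 genes, all lower with clodronate (0.205% of genes tested), of which 0 were in the muscle lists. After upper-quartile scaling 0 genes passed (1343 at an unadjusted p under 0.05), with the median over all genes at 0.0079, and with the replicate number as a block 11 passed. The muscle genes had a median of 0.84 higher with clodronate by estimate, against -0.042 over all genes, and none of the 115 passed (smallest limma adjusted p 0.241). The standard errors of 1.18 for Myh4 and 1.06 for Ttn between wheel and hub are on the log2 scale. How far single muscle-rich mice account for them was not tested.

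Of 144 genes in the 10 muscle lists, 143 were found, 4 chose the mice, and 115 of the other 139 were above the floor in at least 5 mice. As a description, 60 of the 115 had an adjusted p under 0.05 on the higher side and 0 on the lower, and in 58 the 2 sides did not overlap, where over all 15134 genes 2.97% had such a p on the higher side and 2.15% did not overlap in that direction. These shares follow from the ranking and are no test. Between muscle-rich and muscle-poor mice the 115 genes had a median difference of 2.34, and all genes tested one of -0.030. Mylpf and Tnnt3, which helped to choose the mice, are themselves fast fibre genes, so the order of the lists is not independent of the ranking.

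**Figure D2:**
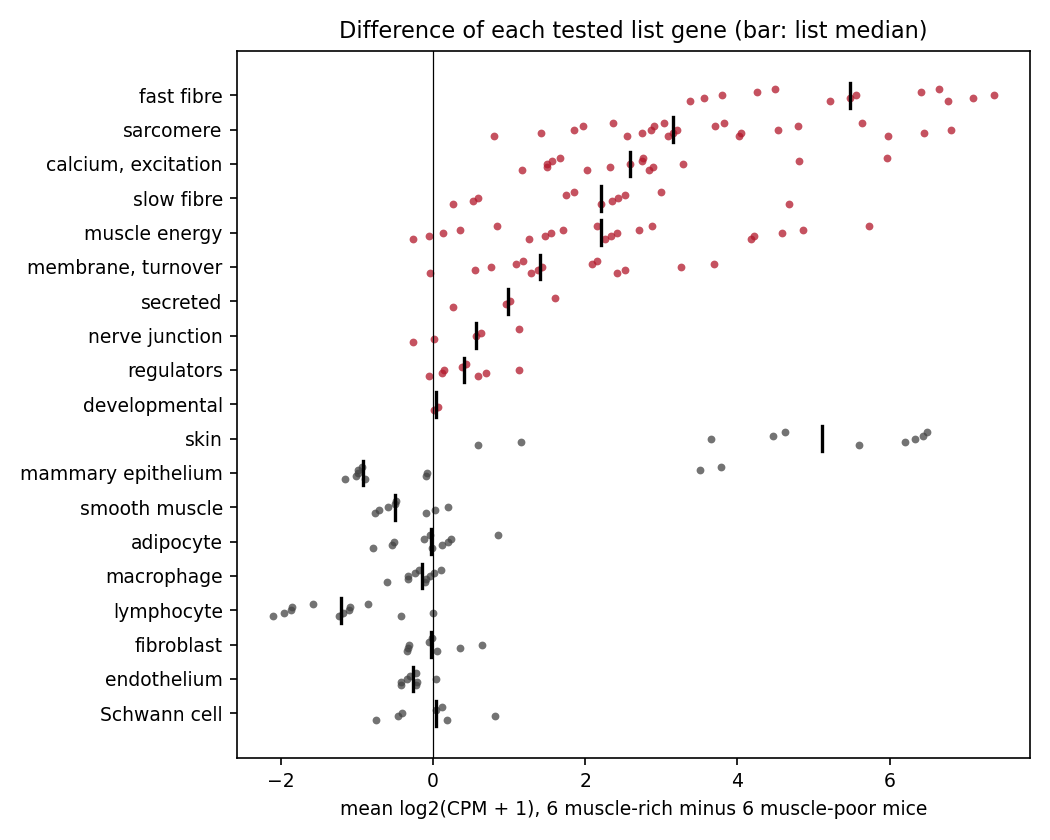
Difference in mean log2(CPM + 1) between the 6 muscle-rich and 6 muscle-poor mice for every tested gene of 19 lists, with a bar at each list's median. Fast fibre genes have a median of 5.48, regulators 0.40 and developmental genes 0.040, while the skin list has 5.11 with Krt71 and Krt25 apart from its other 8 genes.

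All 13 of the fast fibre list outside the 4 were above the floor in at least 5 mice, the 2 sides did not overlap in any of them, and their median difference was 5.48. Myh4, the type IIB myosin heavy chain on chromosome 11 (67238029 to 67260446), was at 5284, 2152, 676, 474, 351 and 267 CPM in the muscle-rich mice in order of rank and at 5.08, 3.23, 3.28, 4.58, 3.58 and 5.02 CPM in the muscle-poor mice, a difference of 7.37 (SE 0.58) in log2(CPM + 1). Its order among the muscle-rich mice was that of the ranking. Tnnc2 (fast troponin C) was at 2606 to 156 CPM and at 4.09 to 1.13 CPM on the 2 sides, and Tnni2 (fast troponin I) at 2017 to 104 and 5.53 to 1.25 CPM. Atp2a1, on chromosome 7 (126445858 to 126463108), was at 3101 to 133 and 4.05 to 1.76 CPM, and Pvalb, the calcium buffer of fast fibres, at 1672 to 95.3 and 2.02 to 1 CPM. Actn3, the Z-disc actinin of fast fibres, was above the floor in 1 of the 6 muscle-poor mice (1.28 CPM) and at 20 to 880 CPM in the muscle-rich. Myh2, the heavy chain of type IIA fibres, was at the floor in all 6 muscle-poor mice and at 281 CPM in wheel clodronate mouse 2 but 2.56 CPM in hub clodronate mouse 5.

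The heavy chains give the make-up of the muscle signal. Of the reads of Myh4, Myh1 (type IIX), Myh2 (IIA) and Myh7 (slow), Myh4 took 76.1% (95% interval 75.7 to 76.5, exact Clopper-Pearson, as for the shares that follow) in wheel clodronate mouse 2, 79.3% (78.5 to 80.2) in hub clodronate mouse 3, and 87.8% (87.2 to 88.4), 89.1% (88.2 to 89.9), 89.3% (89.1 to 89.5) and 91.5% (90.7 to 92.2) in hub PBS mouse 3, hub clodronate mouse 5, hub clodronate mouse 2 and hub PBS mouse 6. The single wheel mouse of the muscle-rich side thus had the lowest Myh4 share and the highest Myh2 share, 9.92% (9.65 to 10.2) against 0.651% to 3.75% in the 5 hub mice. With 1 wheel mouse among them, whether that goes with activity was not tested. Myh7 took 0.477% to 1.38% in the 5 mice where it was above the floor and has no share in hub clodronate mouse 5, where the floor can hide up to 13 reads. These intervals cover counting error only. Myh4, Myh1 and Myh2 are close copies that lie side by side on chromosome 11 (Myh2 from 67171027, Myh1 from 67200052), while Myh7 lies on chromosome 14. Reads that matched several genes were not assigned.

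Slow fibre genes were seen mainly in the mice of highest rank. Myh7, the slow heavy chain, was at 53.9, 39.0, 6.48, 6.98, 1 and 1.39 CPM in the muscle-rich mice in order of rank and at the floor in all 6 muscle-poor mice. Tnnt1 (slow troponin T) was at 127, 66.8, 44.1, 3.91, 1 and 8.64 CPM, and Myl2 (slow regulatory light chain) at 53.7, 39.3, 13.2, 1, 1 and 7.80 CPM. In each of these 3 genes hub clodronate mouse 5 was at the floor, although its Myh4 was at 351 CPM. The slow fibre list had a median difference of 2.21 over 11 tested genes, and Mybpc1 was the 1 gene of the list whose sides did not overlap, at 200 to 17.0 CPM and at most 1.09 CPM. Mybpc1, the slow form of myosin binding protein C, is also made in fast fibres. Atp2a2 and Tpm3, which many cell types express, were at 67.3 to 126 and 51.7 to 184 CPM in the muscle-rich mice and at 46.5 to 90.5 and 56.7 to 105 CPM in the muscle-poor, with overlap. The plot of heavy chains by mouse shows the same order.

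**Figure D3:**
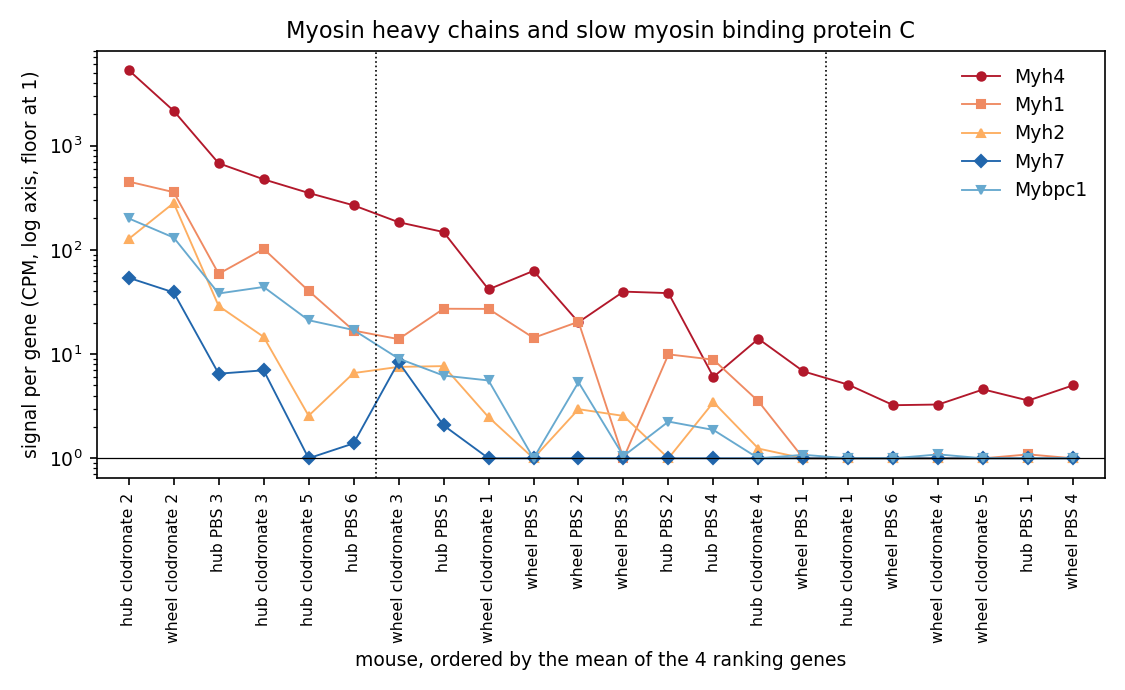
Signal (CPM, log axis, floor at 1) of 4 myosin heavy chain genes and Mybpc1 in each mouse, ordered by rank, with dotted lines at the edges of the 6 highest and 6 lowest. Myh4 lies above the other heavy chains in every muscle-rich mouse, from 5284 to 267 CPM, and Myh7 is at the floor in all 6 muscle-poor mice.

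Sarcomere and scaffold genes followed the fast list. The sides did not overlap in 18 of the 23 tested genes, with a median difference of 3.16. Ttn, the giant elastic protein that spans from Z-disc to M-band, was at 3624 to 184 CPM in the muscle-rich and 12.0 to 3.08 CPM in the muscle-poor mice, and Neb (nebulin, along the thin filament) at 1111 to 69.8 and 4.39 to 1.15 CPM. Tcap (titin cap), Xirp2, Myot, Smpx, Lmod2, Tmod4, Actn2 and Myom2, among others of the list, were at the floor in all 6 muscle-poor mice. Des, the intermediate filament of all muscle types, differed less, at 352 to 25.9 against 16 to 3.45 CPM.

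Of the genes that couple excitation to calcium release, 7 of 15 tested did not overlap and the median difference was 2.59. Ryr1, the calcium release channel, was at 417 to 18.9 CPM in the muscle-rich and 1.81 to 1 CPM in the muscle-poor mice. Trdn (triadin, which anchors calsequestrin to that channel) was at 649 to 37.6 CPM and at the floor in all 6 muscle-poor mice. Pln, the brake on SERCA in heart and slow muscle, was above the floor in 1 muscle-rich and no muscle-poor mouse. Among energy genes, 11 of 20 did not overlap. Pygm (muscle glycogen phosphorylase) was at 1331 to 61.1 against 3.66 to 1.52 CPM, Eno3 (muscle enolase) at 764 to 42.8 against 8.87 to 4.08 CPM and Mb (myoglobin) at 256 to 19.8 against 2.45 to 1 CPM. Enzymes that other tissues share overlapped: Aldoa was at 669 to 3191 CPM in the muscle-rich and 554 to 1261 CPM in the muscle-poor mice, Ldha at 138 to 321 and 146 to 401 CPM, and Gys1 at 39.8 to 90.6 and 62.9 to 107 CPM.

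Genes of the fibre membrane and of protein turnover had a median difference of 1.41 over 14 tested genes, of which 7 did not overlap. Trim63 (the ubiquitin ligase MuRF1) was at 2.95 to 41.4 CPM in the muscle-rich mice and at the floor in the muscle-poor, while Fbxo32 (atrogin-1) was at 29.6 to 119 and 26.6 to 39.5 CPM. Dmd (dystrophin) was at 8.13 to 44.6 and 3.84 to 11.5 CPM, with overlap.

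Genes of muscle precursors and of regeneration were near the floor on both sides. Myf5 was at the floor in all 22 mice, Myog was at 1.88 CPM in hub clodronate mouse 3 and at the floor in the other mice, and Pax7, the satellite cell factor, was at 1.22 CPM in hub clodronate mouse 2 and at the floor in the other mice. Embryonic myosin Myh3 and the fetal receptor subunit Chrng were at the floor in all 22 mice. So were Chrne, Chrnd and Musk, 3 of the 10 genes of the nerve junction list. That list summed to 2.84 to 31.8 CPM in the muscle-rich and 2.26 to 7.56 CPM in the muscle-poor mice. Its 5 tested genes had a median difference of 0.57, and the 2 sides overlapped in each. Myod1 reached 1.83 CPM in the muscle-rich mice. Mstn (myostatin), a growth inhibitor secreted by fibres, was at 1.11 to 23.8 CPM in the muscle-rich mice and at the floor in the muscle-poor. At this depth, changes of genes below 1 CPM were not detectable.

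All genes were then fitted in the 10 middle mice, which the 2 sides leave out, by limma regression of log2(CPM + 1) on the 4-gene mean. That mean is made of the ranking values, which are muscle genes themselves. The slopes and p-values of muscle genes thus describe how closely they follow it and are no support independent of the ranking. In these mice 10 of the 15134 genes passed an adjusted p of 0.05, all with a positive slope (0.0661% of genes tested, with 494 genes at an unadjusted p under 0.05 in either direction), and all 10 were in the muscle lists. They were Atp2a1, Tnni2, Trdn, Pygm, Ttn, Tnnc2, Neb, Myh4, Tcap and Xirp2. Of the 115 muscle genes, 95 had a positive slope, with a median of 0.15, against 48.6% positive and a median of -0.0037 over all genes. Atp2a1 was at 95.5, 61.4, 71.6, 33.7, 29.6, 25.4, 14, 15, 10.8 and 4.81 CPM in mice of rank 7 to 16. Its slope was 1.00 per unit of the mean (SE 0.0815, limma adjusted p = 0.000784), so that it fell with the ranking through the whole middle range. Myh4 had a slope of 1.17 (SE 0.17, limma adjusted p = 0.0297) and Pygm of 0.78 (SE 0.089, limma adjusted p = 0.00662). Without wheel PBS mouse 1, the lowest of the 10, 1 gene passed, without wheel clodronate mouse 3 it was 2 and without hub clodronate mouse 4 it was 5. Atp2a1 passed in all 10 fits that left out 1 mouse, while Tcap and Xirp2 passed in 2.

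By likeness over the 22 mice, the 10 genes with the highest Pearson r to the 4-gene mean were Atp2a1 (0.996), Trdn, Tcap, Tnnc2, Tnni2, Neb, Pygm, Ttn, Myh4 and Xirp2 (0.986), of the fast fibre, sarcomere, calcium and energy lists. They are the 10 genes that passed in the middle mice, which is no support, since those mice are among the 22 and the 4-gene mean is the same.

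Outside the muscle lists, the genes that rose most in the muscle-rich mice were genes of cornifying epidermis. Over all 15134 genes limma gave 450 higher and 37 lower (0.244% of genes tested were lower), with 2317 at an unadjusted p under 0.05, and 390 of the 450 were in no muscle list. Of the 10 skin markers, 8 rose, by 3.66 to 6.50 in log2(CPM + 1): Krt1, Krt10, Krt77, Lor, Flg, Krtdap, Sbsn and Dsg1a, and in 7 of these the 2 sides did not overlap. Krt71 and Krt25, keratins of the inner sheath of the hair follicle, differed by 0.60 (SE 0.45) and 1.15 (SE 0.52) and did not pass. The same 8 markers passed in each of the 12 fits without 1 mouse. Without the 2 mice of highest muscle signal, 139 genes were higher and 4 lower, and without the 2 muscle-poor mice rich in lymphocyte genes 94 and 4. In these 2 fits 7 and 6 of the skin markers passed.

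Krt10, the keratin of the suprabasal epidermis on chromosome 11 (99385254 to 99389364), was at 3950, 1893, 993, 4443, 741 and 153 CPM in the muscle-rich mice in order of rank and at 10.3, 52.6, 13.6, 16.5, 7.59 and 9.16 CPM in the muscle-poor mice. The 2 sides did not overlap, and the highest value was in the mouse at rank 4, not rank 1. The difference was 6.34 (SE 0.70, limma adjusted p = 0.000197). Lor, on chromosome 3 (92080271 to 92083142), encodes the main protein of the cornified envelope and was at 1836, 1417, 337, 2038, 374 and 60.6 CPM in the muscle-rich mice and at 5.86, 30.8, 3.71, 8.26, 4.45 and 4.02 CPM in the muscle-poor. Its difference was 6.20 (SE 0.76, limma adjusted p = 0.000390). Wheel PBS mouse 6 had the highest Krt10 and Lor of the muscle-poor mice and hub PBS mouse 6 the lowest of the muscle-rich.

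The 15 genes with the largest differences outside the muscle lists were Krtdap (6.50), Krt77 (6.45), Krt10, Lor, Lce1m (6.20), Calm4 (6.13), Dmkn (6.13), Spink5 (5.89), Flg2 (5.81), 2310050C09Rik (5.74), Lce1a1 (5.72), Klk7 (5.68), Krt1 (5.60), Lce1a2 (5.60) and 2310046K23Rik (5.44), with limma adjusted p from 0.000195 to 0.00108. Krtdap and Dmkn (dermokine) are secreted by differentiating keratinocytes, Spink5 encodes an inhibitor of the proteases that shed the outer layer, and Klk7 is a protease of that kind. Flg2 and the Lce1 genes encode further parts of the cornified layer. Of the 15, 7 lie on chromosome 3 between Lor (from 92080271) and Flg2 (to 93221391), the cluster of genes known as the epidermal differentiation complex. The Lce1 genes are near copies of each other, and how reads were divided among them is uncertain.

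Of the 10 mammary epithelium markers, the basal keratins Krt5 and Krt14 rose and the other 8 did not pass. Krt5 was at 1195, 619, 460, 1468, 220 and 86.8 CPM in the muscle-rich mice and at 23.2 to 48.9 CPM in the muscle-poor (difference 3.78, SE 0.54, limma adjusted p = 0.00129), and Krt14 differed by 3.51 (SE 0.64, limma adjusted p = 0.00721). Both genes are made in basal epidermis and in the basal cells of the mammary gland. The luminal markers Krt8, Krt18, Krt19, Cldn3 and Prlr had estimates of -0.93 to -1.15 that did not pass (limma adjusted p from 0.0689 to 0.145), and the 2 sides overlapped in each. Epcam, shared by luminal cells and other epithelia, was at 40.5 to 67.1 and 48.5 to 71.4 CPM (difference -0.087, 95% interval -0.39 to 0.22).

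In the middle mice none of the skin genes passed the test of the slope on the muscle ranking. Krt10 was at 608, 7.49, 1157, 2522, 1188, 15.2, 1076, 864, 95.4 and 14.2 CPM in the mice of rank 7 to 16. The lowest value was in hub PBS mouse 5 at rank 8 and the highest in wheel PBS mouse 5 at rank 10. Its slope on the 4-gene mean was 0.41 (SE 0.73, 95% interval -1.18 to 2.00, limma adjusted p = 1), and Lor had 0.42 (95% interval -1.27 to 2.10), where Atp2a1 had 1.00 (0.82 to 1.18). The interval for Krt10 includes the slope of Atp2a1, so these 10 mice do not tell the 2 slopes apart. The sum of the 10 skin markers was 399 to 12508 CPM in the muscle-rich, 21.2 to 8117 CPM in the middle and 22.7 to 165 CPM in the muscle-poor mice. The skin list mean and the 4-gene mean had a Pearson r of 0.66 over the 22 mice and of 0.12 over the 10 middle mice. As a description over the 10 middle mice, 343 of the 390 genes called higher outside the muscle lists had a higher Pearson r with the mean of the skin list than with the 4-gene mean (median r 0.86 and 0.12), while 54 of the 60 called muscle genes had it the other way (median r 0.080 and 0.74). Those middle mice share no sample with the contrast, and the genes are not independent of each other. Among the 390 are the 8 skin markers, which are part of the skin list mean themselves. The same share over all genes tested was not computed, so the 343 cannot be set against it.

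**Figure D4:**
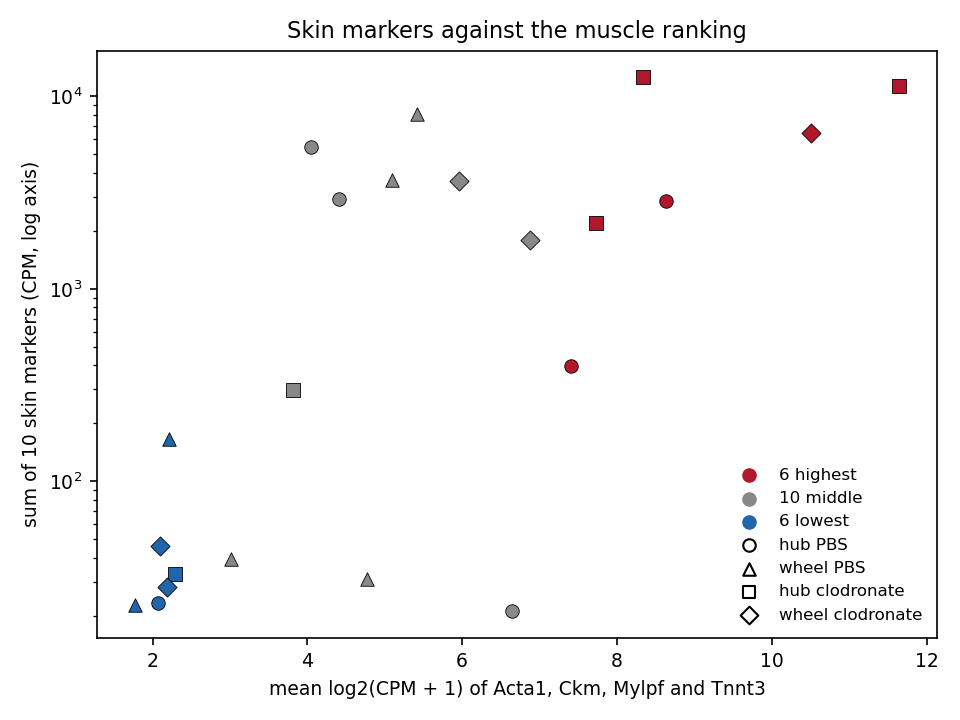
Sum of the 10 skin markers (CPM, log axis) against the mean log2(CPM + 1) of the 4 ranking genes for the 22 mice, coloured by rank and shaped by labelled group. The 6 muscle-rich mice lie at 399 CPM or more and the 6 muscle-poor at 165 CPM or less, while the 10 middle mice are spread from 21.2 to 8117 CPM.

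Hair follicle keratins marked a different mouse. Krt71 was at 697 CPM and Krt25 at 1316 CPM in hub PBS mouse 4, at rank 14, against at most 32.6 and 49.3 CPM in the other 21 mice. By label, Krt10 differed by -0.93 between wheel and hub mice (SE 1.31, limma adjusted p = 0.877) and by 1.38 between clodronate and PBS mice (SE 1.31, limma adjusted p = 0.746).

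Fewer genes were lower in the muscle-rich mice than higher, and the largest falls among those named were in Fasn, Tkt and Slc25a1. Of the 37, 13 met the rule for naming: Fasn, Tkt, Slc25a1, Thsd4, Sorl1, Kbtbd11, Parm1, Rftn2, Rims4, Clstn3, Pepd, Ralgapa2 and Dlat. That rule asked that the 2 sides not overlap, so this holds in each of them by choice. Over all genes tested, 0.251% did not overlap on the lower side. Fasn, the fatty acid synthase on chromosome 11 (120805846 to 120824547), was at 579, 1601, 2588, 666, 947 and 2368 CPM in the muscle-rich mice and at 5571, 4106, 3177, 3067, 4980 and 4077 CPM in the muscle-poor. It fell by 1.72 (SE 0.39, limma adjusted p = 0.0257). Its lowest values were in hub clodronate mice, and it was also lower by estimate with clodronate over all 22 mice (-1.36, SE 0.34, limma adjusted p = 0.0886). Among the PBS mice of the contrast it was at 2368 and 2588 CPM in the 2 muscle-rich and 4077 to 4980 CPM in the 3 muscle-poor, and among the clodronate mice at 579 to 1601 and 3067 to 5571 CPM, as must follow where the sides do not overlap as a whole. Of the 37 lower genes, 33 were also lower by estimate with clodronate over all 22 mice (median -0.34, against -0.042 over all genes), and 0 passed in both comparisons. Over all genes tested, 42.6% were higher by estimate with clodronate. The mice that chose the 37 are among the 22, so the 33 are no independent support. After upper-quartile scaling the median over all genes was 0.0079 and 0 genes passed between clodronate and PBS. Slc25a1 differed by -1.12 (limma adjusted p = 0.102) and Tkt by -1.07 (limma adjusted p = 0.131) between clodronate and PBS.

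Slc25a1, which exports the citrate that fat synthesis uses from mitochondria, fell by 1.5 (SE 0.31, limma adjusted p = 0.0137), from 399 to 687 CPM in the muscle-poor to 97.2 to 359 CPM in the muscle-rich mice. Tkt, a transketolase of the pathway that makes NADPH, fell by 1.69 (SE 0.31, limma adjusted p = 0.00791), from 380 to 808 to 115 to 357 CPM. Dlat, a subunit of pyruvate dehydrogenase, fell by 0.68 (SE 0.16, limma adjusted p = 0.0275). Sorl1, a sorting receptor, fell by 1.38 (SE 0.24, limma adjusted p = 0.00504), from 78.2 to 138 to 21.1 to 60.6 CPM, and Pepd, a peptidase that cleaves proline dipeptides, by 0.98 (SE 0.20, limma adjusted p = 0.0125). In the 12 fits without 1 mouse, Slc25a1, Tkt, Sorl1, Thsd4, Parm1, Rftn2 and Pepd passed in all 12, while Fasn and Dlat passed in 4 and Kbtbd11 in 2. Thsd4 and Rftn2 lay near the floor, each above it in 4 of the 6 muscle-rich mice. They were at most at 3.67 and 3.52 CPM there and at 4.74 to 7.78 and 4.48 to 6.93 CPM in the muscle-poor mice. With activity and liposome in the fit, 6 of the 13 no longer passed. With the lymphocyte list mean in the fit, 11 of the 13 passed. Without the 2 muscle-poor mice of highest lymphocyte sum 1 of the 13 (Parm1) passed, and without the 2 mice of highest muscle signal 2 (Thsd4 and Rftn2). With the skin list mean in the fit 0 of the 13 passed, but so did 0 of all 15134 genes. That mean does not overlap between the sides, so this fit cannot separate the 2 and says nothing particular to the lower genes. In the 10 middle mice the 37 lower genes had a median Pearson r of 0.028 with the skin list mean and of -0.17 with the 4-gene mean.

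**Figure D5:**
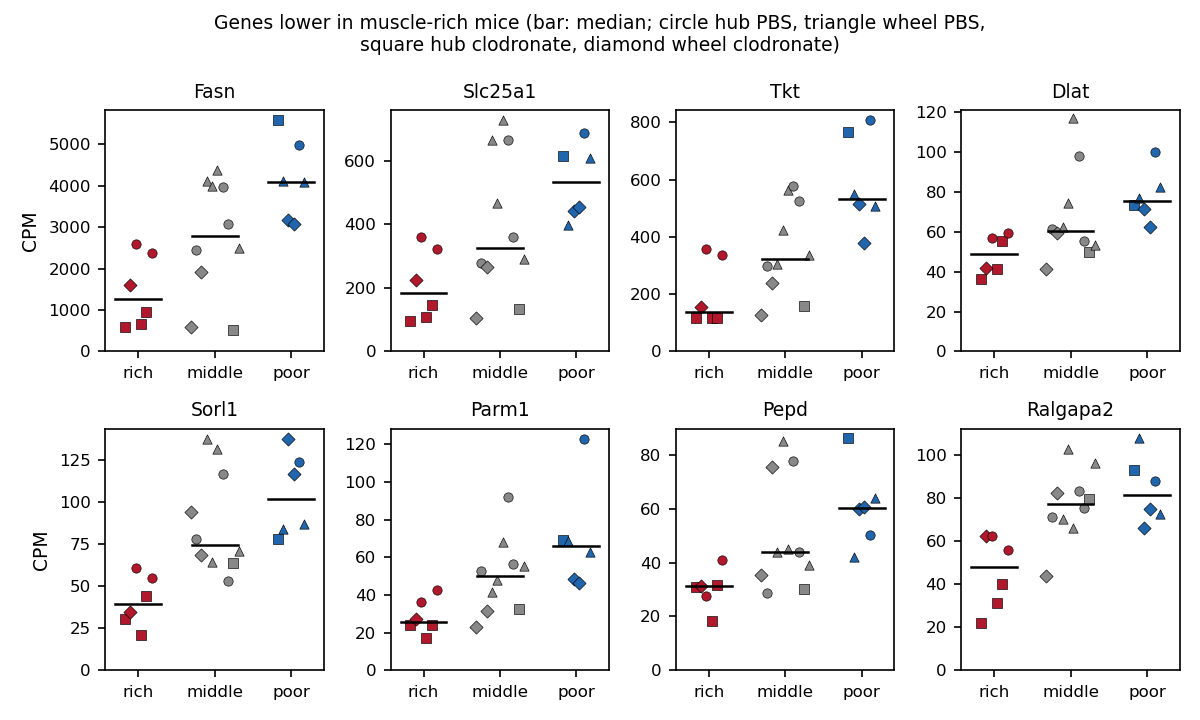
CPM of 8 genes lower in muscle-rich mice, with each mouse as a point (shape by labelled group) and a bar at the median of the 6 rich, 10 middle and 6 poor mice. In Fasn the muscle-rich mice lie between 579 and 2588 CPM, all below the muscle-poor at 3067 to 5571 CPM.

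None of the 10 adipocyte markers passed, and Adipoq (adiponectin) was at 865 to 2221 CPM in the muscle-rich and 1104 to 2137 CPM in the muscle-poor mice (difference -0.013, 95% interval -0.62 to 0.59). Plin1, the lipid droplet coat, differed by -0.11 (95% interval -0.78 to 0.55). Among smooth muscle genes Myh11 was at 13.8 to 52.2 and 37.1 to 84.6 CPM (difference -0.76, SE 0.27, limma adjusted p = 0.180), and 0 of 8 passed. The 7 heart markers had a sum of 1.71 to 5.63 CPM in the muscle-rich and 0 to 1.63 CPM in the muscle-poor mice, above the floor, and 0 of the 2 tested passed. Markers of macrophages (0 of 10), fibroblasts (0 of 8), endothelium (0 of 8), Schwann cells (0 of 7 tested), brown fat (0 of 7 tested) and tendon (0 of 4 tested) passed in neither direction, and the same held for lymphocytes (0 of 12, median difference -1.21), red cells (0 of 5), mast cells (0 of 5 tested), neutrophils (0 of 3 tested) and proliferation (0 of 8). Citric acid cycle enzymes (0 of 15, median -0.056), mitochondrially encoded genes (0 of 5 tested) and exercise response genes (0 of 8 tested) did not pass either. Pdk4, a kinase that rises in muscle on fasting and exercise, was at 2.06 to 37.7 and 2.08 to 6.78 CPM (difference 1.55, SE 0.55, limma adjusted p = 0.170).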

How the data were processed

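Mammary tissue RNA of 22 mice was sequenced with QuantSeq 3′ FWD on a HiSeq instrument. The submitters' processing notes name STAR 2.5.3a and GRCm38, and the counting tool is not given in the sources used here. The authors deposited 1 file per mouse with the signal of each gene as CPM, in which nothing lies under 1. The deposited signal is a share of all reads of the library, 100% of values above the floor being whole multiples of 1 read within 0.01 of a read, but reads at the floor are lost, so count tests were not run. Rows that name no gene took 16.6% to 19.9% (multimapping), 11.5% to 17.8% (no feature), 4.13% to 8.66% (unmapped) and 0.484% to 0.615% (ambiguous) of reads and were left out. Of 52636 gene rows, 106 symbols were listed more than once and kept their highest row, which left 52526.

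Genes above 1 CPM in at least 5 of the 22 mice (15138, or 15134 without the 4 ranking genes) were tested on log2(CPM + 1), a scale that understates changes near the floor, with limma 3.58.1 in R 4.3.3 (variance trend, Benjamini-Hochberg adjustment over all genes tested, threshold 0.05). Counts and shares were compared by Fisher's exact test and exact permutation in scipy. Groups come from the sample labels, which describe different animals. The 29 gene lists, the members and the tests were chosen with earlier results of these data known. Genes outside the muscle lists were named if they were among the 15 largest differences each way past the threshold, without overlap and with 5 CPM or more on average in the higher group, or were members of another list past the threshold. Coordinates are GENCODE M21 (GRCm38). The steps were tested on simulated data. The number of a mouse within its group was given here, in the order of the titles. The titles themselves count through the whole series, repeat no number and leave some out. Same-numbered mice are different animals, and the labels pair none of them. Their deviations correlated by 0.046 on average (31 pairs, -0.39 to 0.51), which cannot decide whether other pairs exist. Alternatives were other pseudocounts, filters and scalings, covariates, a block for the replicate number and fits without single mice.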

Additional observations from a re-analysis of the deposited data

Results flagged for a closer look

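Over 16 measures in the 4 labelled groups (64 comparisons of a mouse with its group), 4 mice stood far from the nearest other mouse relative to the group's range by Dixon's criterion, where chance gives about 3.2. The slow fibre list mean was 5.62 in log2(CPM + 1) in hub clodronate mouse 2, the mouse of highest muscle signal, where the next mouse of its group had 2.92. The mean of the calcium and excitation list was 4.50 in wheel clodronate mouse 2, at rank 2, where the next had 2.01. The lymphocyte list mean was 4.57 in hub PBS mouse 2 (next 1.49) and 4.95 in wheel PBS mouse 3 (next 1.35), both of which are middle mice and enter neither side of the contrast.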

How the results depend on the processing

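The 487 genes called between muscle-rich and muscle-poor mice became 275 among genes above 1 CPM in all 12 mice, 234 without a filter, 261 with activity and liposome as covariates and 905 as a slope over 22 mice. The 37 lower genes became 21 with a pseudocount of 5, 8 without a filter, 60 with upper-quartile scaling and 159 as a slope. The 8 skin genes became 5 among genes above 1 CPM in all 12 mice, since Flg, Sbsn and Dsg1a were then not tested. Alternatives chosen after seeing the data gave 143 genes (4 lower, 7 skin genes) without the 2 mice of highest muscle signal and 98 (4 lower, 6 skin genes) without the 2 muscle-poor mice of highest lymphocyte sum. With the skin list mean as a covariate, which does not overlap between the sides, 0 genes passed, 0 of them lower and 0 in the skin list (546 at an unadjusted p under 0.05), and 7 genes changed sign without passing: Klk7 (-0.16), Krt1 (-0.62), 2310046K23Rik (-0.18), Flg (-1.61), Sbsn (-0.62), Krt14 (-1.39) and Krt5 (-0.41). Without 1 mouse, 287 to 843 genes passed (11 to 160 lower, 8 skin genes each time), the most without hub PBS mouse 6 and the fewest without wheel clodronate mouse 2, and the middle mice gave 1 to 10. The count also moved by over 1.5 times without hub clodronate mouse 1, 2 or 3, wheel clodronate mouse 4 or 5, or wheel PBS mouse 4 (301 to 318 genes). With the replicate block, 17 genes passed, all in the muscle lists, 0 lower and 0 of the skin list. Numbers 5 and 6 alone occur on both sides, and these numbers were given here, not by the labels. The 31 genes of the liposome comparison became 54 among genes averaging 5 CPM or more, 0 after upper-quartile scaling, 20 when no variance trend was used and 11 with the block, and the 0 of the activity comparison became 2 without a filter. The tests of how the sides fall over activity and liposome did not change with the ranking, and the library measures gave differences of -2381477 to -1024940 reads, 0.731 to 2.16 percentage points and 72 to 206 genes without 1 mouse, of which total reads without hub PBS mouse 1 passed 0.05 (exact permutation p = 0.0476). Where fewer genes or mice do not account for a change, its cause was not tested. The floor hides what lies below 1 CPM.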
